A study of Mus musculus with 11 samples.

Results

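The endothelin peptide, its converting enzyme, its receptors and the nitric oxide synthases were examined in the left ventricle of mice before and after myocardial infarction (MI). The 7 genes were chosen by name from their roles: Edn1, Ece1, Ednra, Ednrb, Nos1, Nos2 and Nos3, of 25006 genes with counts. Bulk mRNA of 11 left ventricles was sequenced, with 1 library for each mouse. The naive Vegfc fl/fl mice (n = 2, M44 and M45) and the naive Vegfc fl/fl ; LysMCre mice (n = 3, M149, M150 and M34) had no ligation. The Vegfc fl/fl mice (n = 3, M006, M38 and M40) and the Vegfc fl/fl ; LysMCre mice (n = 3, M35, M900 and M913) of the MI groups had a permanent ligation of a coronary artery, and infarcted ventricle was taken 9 days later. The genotypes are called control and Cre here. All 11 mice carry the floxed Vegfc alleles by the genotype labels, whereas the protocol text names the control mice as LysMCre, so it is not settled whether the controls carried Cre. LysMCre recombines in myeloid cells, which include macrophages and neutrophils, so other cells of the ventricle keep Vegfc. Ages and sexes are not stated in the labels.

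Endothelin-1 is made as a precursor that furin-type proteases and then endothelin converting enzyme cleave to the active peptide. It acts through 2 G protein-coupled receptors: the ETA receptor, encoded by Ednra and found mainly on smooth muscle, cardiomyocytes and fibroblasts, drives constriction and growth, while the ETB receptor, encoded by Ednrb, is found on endothelium, where it clears the peptide and triggers nitric oxide release, and on smooth muscle. Nitric oxide is made from arginine by the neuronal (Nos1), inducible (Nos2) and endothelial (Nos3) synthases, which need the cofactor tetrahydrobiopterin, and it relaxes vessels through soluble guanylate cyclase and cGMP.

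Total counts were 10824989 to 14585642 in the 5 naive libraries and 14580756 to 26782728 in the 6 MI libraries, and levels are given as CPM, the counts scaled to library size after TMM, edgeR's correction for library composition. A count of 3 was worth 0.101 to 0.363 CPM, a floor that covers counting error only. Xist ranged over 0.624 to 11.8 CPM among naive and 188 to 403 CPM among MI libraries, and Y-linked genes summed to 152 to 195 CPM and to at most 1.84 CPM, so this split between male and female patterns cannot be told apart from MI. Vegfc, the floxed gene, ranged over 25.1 to 34.7 CPM before and 21.9 to 45.5 CPM after MI, and the genotypes overlapped in both. Lyz2, the gene into which LysMCre is inserted, was at 2121 and 2282 CPM in naive control and 4538 to 5380 CPM in MI control libraries, and at 12.4 to 1392 CPM in 5 of the 6 libraries labelled Cre, but at 4565 CPM in the sixth, the naive library labelled Cre M149. In Lyz2, M149 was thus unlike the other libraries labelled Cre. Whether it carries the labelled genotype was not tested. The members' MI responses in Cre mice are given with and without M149, as are the numbers of list genes called. Cardiomyocyte markers (9 genes) summed to 78540 to 110705 CPM in naive and 2800 to 27271 CPM in MI libraries, and fibroblast markers (9 genes) to 5598 to 7630 CPM and 30719 to 48610 CPM. In such whole-tissue samples, fewer cells of a type and less RNA per cell cannot be told apart.

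The promoters of Edn1 and Ednra are shown because these were the members whose level rose after MI in both genotypes. Each window holds 250 bases before the RefSeq start site and 30 bases from it, on build GRCm38.p6, written 5′ to 3′ on the strand of the gene. Capitals mark matches to the letters GATAA (a core bound by the factor family of Gata2), ACGTG (the core of a hypoxia response element) or TGANTCA (an AP-1 site), searched on both strands. The Edn1 window is chr13:42301226-42301505 on the plus strand and the Ednra window is chr8:77724423-77724702 on the minus strand.
Edn1: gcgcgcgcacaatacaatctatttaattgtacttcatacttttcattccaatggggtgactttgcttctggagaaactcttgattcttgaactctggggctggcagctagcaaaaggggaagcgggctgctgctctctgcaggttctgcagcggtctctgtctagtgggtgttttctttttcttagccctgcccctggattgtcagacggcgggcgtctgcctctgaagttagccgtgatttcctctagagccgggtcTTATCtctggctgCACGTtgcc
Ednra: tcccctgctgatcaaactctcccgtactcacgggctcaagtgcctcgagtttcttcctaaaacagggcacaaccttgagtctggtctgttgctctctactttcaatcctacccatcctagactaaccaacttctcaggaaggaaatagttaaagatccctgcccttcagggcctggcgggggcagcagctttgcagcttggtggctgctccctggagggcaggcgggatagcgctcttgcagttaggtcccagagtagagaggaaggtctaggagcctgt
In the Edn1 window, GATAA matched on the opposite strand from position 9 after the start site, and ACGTG matched on the opposite strand from position 22. TGANTCA was not found in the Edn1 window, and none of the 3 motifs was found in the Ednra window. Of 32851 promoter windows of this length, 24.4% held GATAA, 18.5% held ACGTG and 7.46% held TGANTCA, so these letters are common and a match is a description only. The RefSeq table held windows for 5 of the 7 members. Among those not printed, a window of Ece1 held 2 matches to ACGTG, from position -90 on the opposite strand and -89 on the same strand. None of the 3 motifs was found in the windows of Ednrb and Nos1.

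Edn1 (ENSMUSG00000021367, chr13:42301476-42307990, plus strand, GRCm38), which encodes the endothelin-1 precursor, was the member that rose most in control mice. Its level was 4.46 and 3.62 CPM in naive control hearts (M44 and M45) and 20.9, 16.3 and 17.5 CPM in MI control hearts (M006, M38 and M40). In Cre mice it was 7.84, 7.75 and 10.2 CPM in naive hearts (M149, M150 and M34) and 21.6, 18.3 and 15.9 CPM in MI hearts (M35, M900 and M913). Every MI library lay above every naive library, and the 2 MI groups overlapped fully. The fold change with MI was 4.50 in control mice (log2 2.17, SE 0.23, adjusted p = 0.00018, here and below from the quasi-likelihood test of edgeR, Benjamini-Hochberg adjusted over 14779 genes) and 2.16 in Cre mice (log2 1.11, SE 0.18, adjusted p = 0.000633). Edn1 was called in both genotypes under all 19 alternatives tried, and without M149 the log2 fold change in Cre mice was 1.05 (adjusted p = 0.00278 by the same edgeR test).

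The naive groups differed in Edn1. All 3 naive Cre hearts lay above both naive control hearts, by a fold of 2.13 (log2 1.09, SE 0.22, 95% interval 0.59 to 1.59), with an unadjusted p of 0.000585 in edgeR. The adjusted p was 1 over all genes and 0.0597 to 1 over the alternatives, lowest with the DESeq2 Wald test, so the difference did not pass. Without M149 the log2 difference was 1.15 (adjusted p = 0.187 by edgeR with Benjamini-Hochberg adjustment). Naive groups without overlap were found for 22.4% of the genes tested. After MI the genotypes differed by 0.030 on the log2 scale, with a 95% interval of -0.36 to 0.42. The difference between the 2 MI responses was -1.06 (Cre minus control, SE 0.28, unadjusted p = 0.00361, adjusted p = 0.534 by edgeR's interaction test), and -1.12 without M149 (adjusted p = 0.2585). The naive difference shares the naive control libraries with the control response and the naive Cre libraries with the Cre response. It is therefore not independent of the difference between the 2 responses.

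Edn1 is known mainly as an endothelial transcript, so it was also set against a list of 12 blood endothelial markers, none of which was at 0 in any library. The marker sum was 1706 to 2365 CPM in naive and 1019 to 1912 CPM in MI hearts. As a percentage of that sum, Edn1 was 0.167 and 0.200 in naive control hearts, 0.421 to 0.460 in naive Cre hearts, 1.095 to 1.72 in MI control hearts and 1.02 to 1.40 in MI Cre hearts. On this scale too, both naive groups were separate from each other and from the MI groups, and the MI groups overlapped. A rise on this scale was not particular to Edn1. The share of Ece1 was 3.44 to 3.75 in naive and 4.40 to 7.71 in MI hearts, although its CPM moved little in control mice. That of Ednrb overlapped, at 1.08 to 1.57 in naive and 1.13 to 3.32 in MI hearts.

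**Figure D1:**
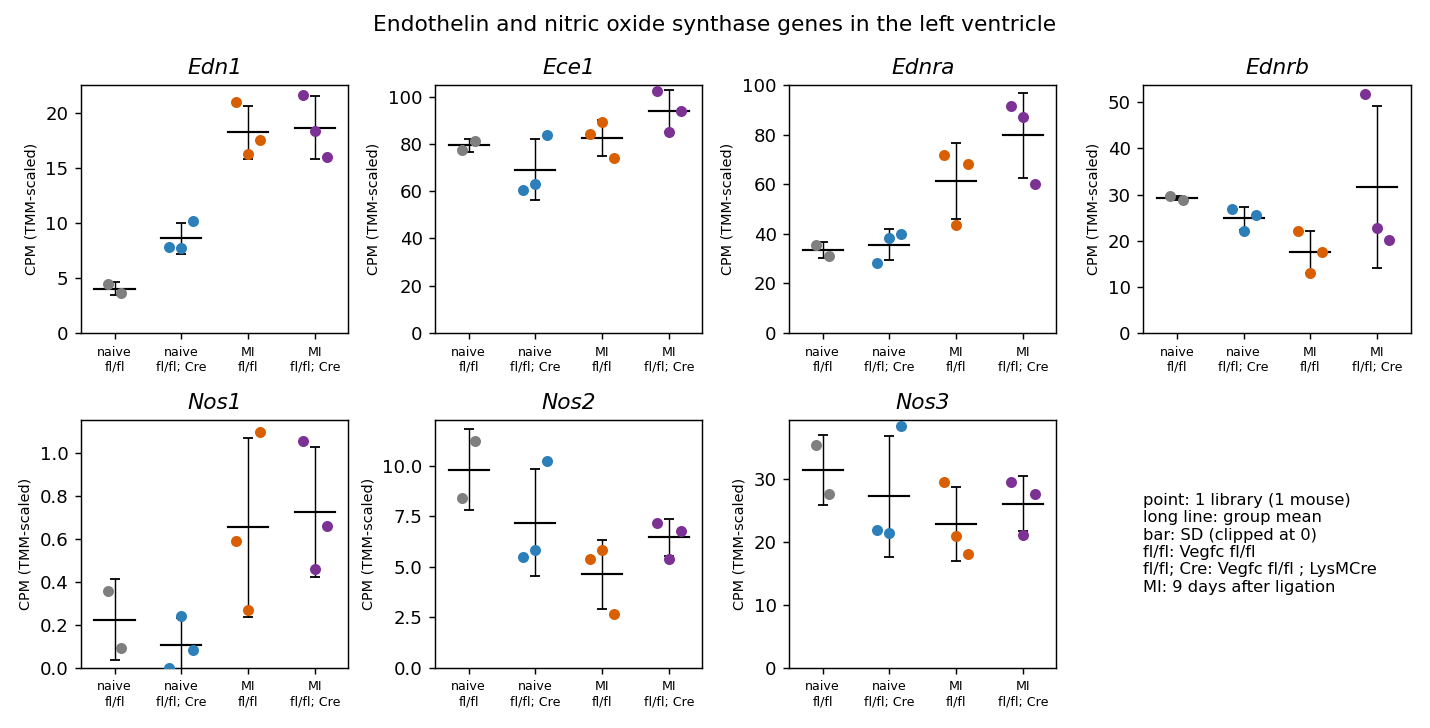
Level of each member in CPM (vertical axes, linear from 0) in the 4 groups, with 1 point for each library, the group mean as a long line and the SD as a bar (n = 2 for naive control, 3 for the others). Edn1 and Ednra are higher in all MI libraries than in all naive libraries, and the MI Cre library M35 stands apart in Ednrb at 51.8 CPM.

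Ece1 (ENSMUSG00000057530, chr4:137862237-137965229, plus strand), the endothelin converting enzyme, moved little in control mice. It was at 77.4 and 81.4 CPM in naive control and 84.1, 89.2 and 73.9 CPM in MI control hearts, groups that overlapped (log2 fold change 0.054, SE 0.16, adjusted p = 0.803 by edgeR). In Cre mice it was at 60.3, 63.2 and 83.7 CPM before and 102.5, 84.9 and 94.0 CPM after MI. The 3 MI Cre hearts lay above the 3 naive Cre hearts, M34 and M900 only narrowly, and the fold of 1.36 passed the edgeR test (log2 0.44, SE 0.15, adjusted p = 0.0259). That call was lost without M149 (0.35, adjusted p = 0.0858), M150 (0.38, 0.0891), M35 (0.37, 0.0737) or M913 (0.41, 0.0791), and with DESeq2 size factors in edgeR (0.39, 0.0552). The response of Ece1 was not shown to differ between genotypes by the edgeR interaction test (difference 0.39, SE 0.22, adjusted p = 0.643), nor without M149 (0.30, adjusted p = 0.642).

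Of the 2 receptors, Ednra was called higher with MI in both genotypes and Ednrb was called in neither. Ednra (ENSMUSG00000031616, chr8:77663031-77724464, minus strand), which encodes the ETA receptor, was at 35.7 and 31.3 CPM in naive control hearts and 71.8, 43.7 and 68.1 CPM in MI control hearts. In Cre mice it was at 28.4, 38.4 and 39.9 CPM before MI and 91.5, 87.3 and 60.2 CPM after it. Each MI library lay above each naive library, with M38 the lowest of the MI libraries. The fold with MI was 1.83 in control mice (log2 0.87, SE 0.26, adjusted p = 0.0172 by edgeR with Benjamini-Hochberg adjustment) and 2.24 in Cre mice (log2 1.16, SE 0.23, adjusted p = 0.00161). The Cre call held under all 19 alternatives and was 1.02 on the log2 scale without M149, but the control call was lost without M44 (log2 0.97, adjusted p = 0.063) or M45 (log2 0.78, adjusted p = 0.116), where 1 naive control library is left and is assumed to vary like the other groups.

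Ednrb (ENSMUSG00000022122, chr14:103814625-103844402, minus strand), which encodes the ETB receptor, was at 29.6 and 28.9 CPM in naive control hearts and 22.0, 13.1 and 17.6 CPM in MI control hearts. The 3 MI control hearts were all below the naive controls, with a log2 fold change of -0.74 (SE 0.36) that did not pass the edgeR test (adjusted p = 0.111). It passed with voom quality weights (adjusted p = 0.0295), with the 2 groups fitted alone (0.0392) and without M35 (0.0126), of 19 alternatives whose adjusted p ran up to 0.263. In Cre mice Ednrb was at 26.9, 22.1 and 25.6 CPM before MI and 51.8, 22.8 and 20.1 CPM after it. The MI Cre mean rests on M35, which held more than any other heart, while M900 and M913 lay within or below the naive range. The log2 fold change in Cre mice was 0.34 with M35 (SE 0.33, adjusted p = 0.390) and -0.21 without it, and without M149 it was 0.40 (adjusted p = 0.396 by edgeR).

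M35 also had the highest cardiomyocyte marker sum of the MI libraries (27271 CPM against 2800 to 15336 CPM in the other five), and its part in the Ednrb value was not tested. Between the MI groups, Ednrb differed by 0.85 on the log2 scale (Cre minus control, SE 0.33, unadjusted p = 0.0257, adjusted p = 0.592 by edgeR), a difference that fell to 0.29 without M35.

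The ratio of the receptors within each library does not depend on library scaling. Per kilobase of merged exons, Ednra over Ednrb was 0.939 and 0.843 in naive control hearts and 0.825, 1.35 and 1.22 in M149, M150 and M34. It was 2.54, 2.60 and 3.02 in MI control hearts and 1.38, 2.98 and 2.33 in M35, M900 and M913. Every MI heart had a ratio above every naive heart, although M35 at 1.38 was close to M150 at 1.35. The group means were 0.891 ± 0.0679 (SD, n = 2), 1.13 ± 0.273 (SD, n = 3), 2.72 ± 0.259 (SD, n = 3) and 2.23 ± 0.808 (SD, n = 3) in the same order of groups.

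Beside Ednra, a list of 11 smooth muscle and pericyte markers summed to 1871 to 2381 CPM in naive and 1748 to 3324 CPM in MI hearts, with 6 markers higher and 3 lower in both genotypes by edgeR. Ednra made up 1.45% to 1.79% of that sum before MI and 1.86% to 5.23% after it. Against the fibroblast sum it ran the other way, from 0.466% to 0.558% before MI to 0.142% to 0.238% after it. No marker of either list was at 0 in any library, and the part of these cell types in the Ednra result was not tested.

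**Figure D2:**
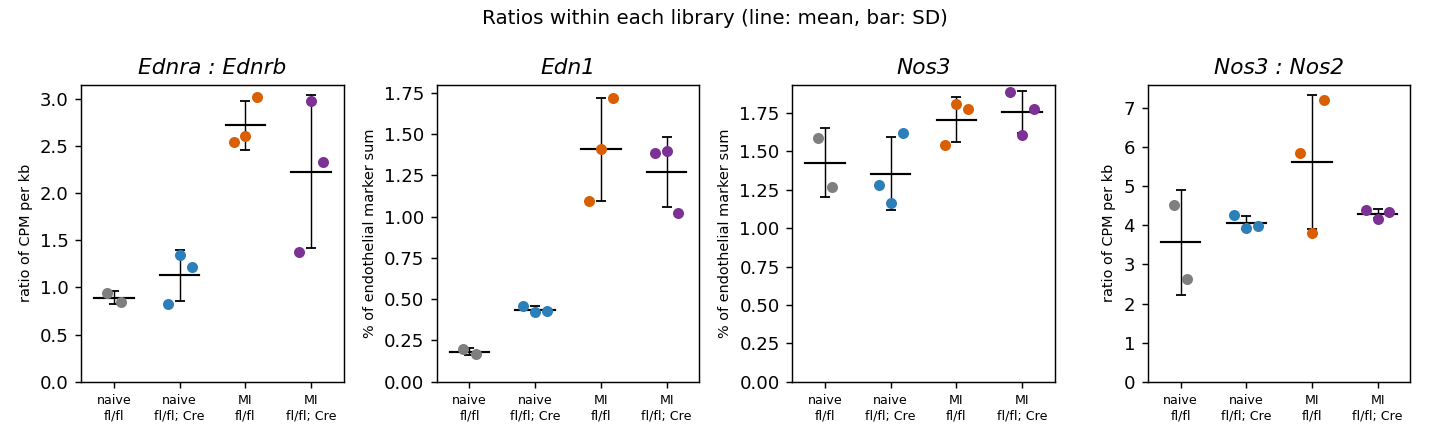
Ratios within each library in the 4 groups: Ednra over Ednrb and Nos3 over Nos2 as CPM per kilobase, and Edn1 and Nos3 as a percentage of the summed CPM of 12 endothelial markers, with the mean as a line and the SD as a bar. The receptor ratio is at most 1.35 in naive and at least 1.38 in MI hearts, and the Nos3 share overlaps between naive and MI hearts.

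The synthases did not rise together. Nos3 (ENSMUSG00000028978, chr5:24364810-24384474, plus strand), the endothelial enzyme, was at 35.4 and 27.5 CPM in naive control, 29.4, 20.9 and 18.1 CPM in MI control, 21.9, 21.4 and 38.3 CPM in naive Cre and 29.4, 21.1 and 27.6 CPM in MI Cre hearts. The 4 groups overlapped. The log2 fold change with MI was -0.47 in control mice (SE 0.29, 95% interval -1.11 to 0.17, adjusted p = 0.200 by edgeR) and -0.067 in Cre mice (SE 0.26, 95% interval -0.65 to 0.51, adjusted p = 0.839). The latter was 0.27 without M34 and -0.21 without M149 (adjusted p = 0.558 for M149 by edgeR). As a percentage of the endothelial marker sum, Nos3 was 1.17 to 1.62 in naive and 1.54 to 1.88 in MI hearts, so the ranges met. Nos3 shares 294 exonic bases with Atg9b on the opposite strand, and since the strand setting of the counting is not given in the sources used here, reads in that stretch cannot be placed with either gene.

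Nos2 (ENSMUSG00000020826, chr11:78920787-78960254, plus strand), the inducible enzyme known from activated macrophages, was low in all hearts and did not rise. It was at 8.38 and 11.2 CPM in naive control and 5.38, 5.85 and 2.68 CPM in MI control hearts. All 3 MI control hearts lay below both naive controls, at 0.472 of the naive level (log2 -1.08, SE 0.37, adjusted p = 0.0319 by edgeR with Benjamini-Hochberg adjustment). That call was lost without M44 (-1.28, adjusted p = 0.060), M45 (-0.85, 0.196) or M40 (-0.80, 0.0748), and with the 2 groups fitted alone (-1.09, 0.061). In Cre mice Nos2 was at 5.49, 5.81 and 10.3 CPM before MI and 7.17, 5.41 and 6.79 CPM after it, groups that overlapped (log2 -0.16, SE 0.34, adjusted p = 0.698), and the value was 0.19 without M34 and -0.33 without M149.

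A list of 9 macrophage markers rose while Nos2 did not. Its sum was 3561 and 3808 CPM in naive control and 8002 to 9314 CPM in MI control hearts, and 6 of the 9 markers were called higher in each genotype by edgeR. It was 6543, 1375 and 1590 CPM in M149, M150 and M34 and 3227 to 3952 CPM in MI Cre hearts. The list holds Lyz2, which carries the LysMCre insertion and made up 4565 CPM of the sum in M149, so the sum was also taken over the other 8 markers, an alternative chosen after seeing the data. Without Lyz2 it was 1441 and 1526 CPM in naive control, 2622 to 4741 CPM in MI control, 1978, 1302 and 1345 CPM in M149, M150 and M34 and 1835 to 3940 CPM in MI Cre hearts. The control groups were separate on this scale, while in Cre mice M149 lay above M35 at 1835 CPM. In Cre mice 7 of the 9 markers were called higher by edgeR without M149.

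Nos1 (ENSMUSG00000029361, chr5:117781032-117958840, plus strand), the neuronal enzyme, which cardiomyocytes and nerves are also known to make, was at the limit of detection. Its counts were 4 and 1 in naive control, 0, 2 and 1 in naive Cre, 11, 8 and 30 in MI control and 18, 11 and 16 in MI Cre libraries. All 7 members passed the filter on low counts, but Nos1 did so through its MI libraries alone, so a difference in this direction was partly built in. Pooled over the Cre libraries, its level after MI was 7.09 times that before (95% counting interval 2.28 to 35.7, from 45 and 3 counts). Over the control libraries it was 2.89 times (1.16 to 9.30, from 49 and 5 counts). These intervals treat reads as independent and leave out the spread between mice. The 95% interval of the edgeR fit in control mice was -0.52 to 3.55 on the log2 scale. The fitted log2 fold change passed in Cre mice (2.77, SE 0.93, adjusted p = 0.0264 by edgeR), with groups that did not overlap, and did not pass in control mice (1.51, SE 0.92, adjusted p = 0.191), where M38 at 0.270 CPM fell below M44 at 0.357 CPM. The Cre call was lost without M149 (2.21, adjusted p = 0.0742), M34 (2.62, 0.0833) or M35 (2.42, 0.0617).

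**Figure D3:**
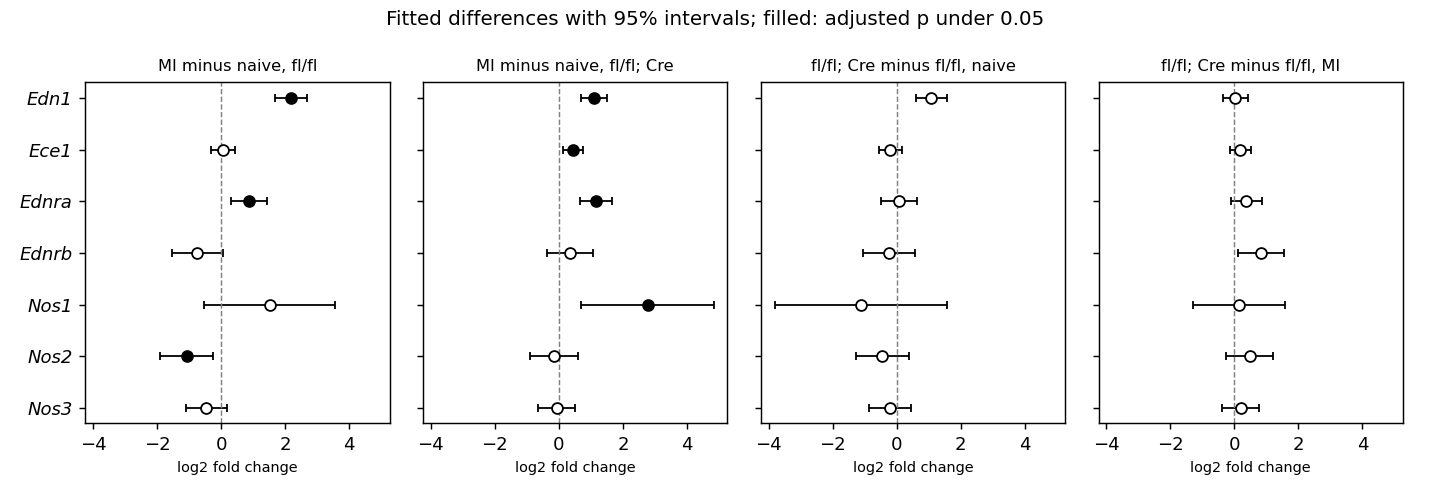
Fitted log2 fold change of each member in 4 comparisons (horizontal axes, one panel each), with 95% intervals as bars and filled points where the adjusted p in edgeR was under 0.05. Filled points are found in the MI comparisons alone: Edn1, Ednra and Nos2 in control mice and Edn1, Ece1, Ednra and Nos1 in Cre mice.

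In control mice, 3 of the 7 members were called with MI, 2 higher and 1 lower, where 50.4% of 14779 genes tested were called (26.3% higher and 24.1% lower). In Cre mice 4 were called, all higher, where 57.6% were called (30% higher and 27.7% lower). One of the 4 was Nos1, which passed the filter through its MI libraries alone, and Nos1 and Ece1 were not called without M149. Groups did not overlap for 4 members in each genotype, beside 72.1% of genes in control and 64.3% in Cre mice. The log2 fold change of Edn1 lay at the percentile of 92.6 among the 14779 genes in control mice and of 82.8 in Cre mice. That of Ednra lay at 77.0 in control mice and 83.8 in Cre mice.

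Between the genotypes after MI, no member was called by edgeR (0% of all genes, with 1173 of 14779 at an unadjusted p under 0.05). The DESeq2 Wald test called 23 genes higher and 39 lower in Cre mice, 0 of them members. The 95% intervals of the log2 difference were -0.36 to 0.42 for Edn1, -0.14 to 0.51 for Ece1, -0.11 to 0.87 for Ednra, 0.12 to 1.57 for Ednrb, -1.30 to 1.57 for Nos1, -0.26 to 1.22 for Nos2 and -0.38 to 0.77 for Nos3. No pair of MI groups was free of overlap for any member, beside 12.1% of all genes. Between the naive genotypes, 0% of genes were called by edgeR (499 at an unadjusted p under 0.05), while the DESeq2 Wald test called 12 higher and 2 lower and voom with quality weights 5 higher and 1 lower, 0 of them members. Besides Edn1, the naive groups did not overlap for Ednrb (28.9 and 29.6 CPM against 22.1 to 26.9 CPM, log2 -0.23, SE 0.37), one of the 22.4% of genes with such separation. The interaction was called for 0% of genes by edgeR, with 1226 at an unadjusted p under 0.05, Edn1 and Ednrb among them.

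Levels of different genes can be set in order per kilobase of merged exons, which is the scale of this paragraph. In naive control hearts Ece1 led with 15.0 ± 0.527 CPM per kilobase (SD, n = 2), followed by Nos3 at 7.62 ± 1.35, Ednrb at 6.86 ± 0.117, Ednra at 6.11 ± 0.570, Nos2 at 2.22 ± 0.457, Edn1 at 1.89 ± 0.276 and Nos1 at 0.0201 ± 0.0169. Nos3 and Ednrb overlapped there, as did Nos2 and Edn1. In naive Cre hearts Edn1 stood above Nos2, at 4.01 ± 0.642 against 1.63 ± 0.603 (SD, n = 3), with no overlap, while Nos3, Ednra and Ednrb overlapped.

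After MI the order changed, with Ednra and then Edn1 next after Ece1 in both genotypes. In MI control hearts the levels were 15.5 ± 1.46 for Ece1, 11.2 ± 2.79 for Ednra, 8.53 ± 1.13 for Edn1, 5.52 ± 1.43 for Nos3, 4.12 ± 1.05 for Ednrb, 1.05 ± 0.388 for Nos2 and 0.0587 ± 0.0375 for Nos1 (CPM per kilobase, SD, n = 3). Ednra and Edn1 overlapped, as did Nos3 and Ednrb. In MI Cre hearts Ece1 at 17.7 ± 1.66 overlapped with Ednra at 14.5 ± 3.10, and Edn1 at 8.71 ± 1.33, Ednrb at 7.41 ± 4.12 and Nos3 at 6.31 ± 1.06 overlapped in turn (SD, n = 3). Dividing by the longest transcript in place of the merged exons put Ednra above Ece1 in MI Cre hearts and next after Ece1 in both naive groups. Nos1 was last under both lengths. Nos3 exceeded Nos2 in every heart, by a ratio of 2.62 to 4.51 in naive and 3.81 to 7.21 in MI hearts.

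Of 65 other genes in 7 lists that cover the steps around these members, 62 were tested and Edn2, Kel and Nos1ap fell below the filter. With MI, 21 rose and 17 fell in control mice and 21 rose and 19 fell in Cre mice, by edgeR with Benjamini-Hochberg adjustment. Over all genes tested, 50.4% were called in control mice (26.3% higher, 24.1% lower) and 57.6% in Cre mice (30% higher, 27.7% lower). The counts of single lists below stand beside these same shares, and the lists were not tested as sets. The median log2 fold change was 0.026 and 0.057 over the lists and 0.13 and 0.097 over all genes. Of the 62, Ece2 and Arg2 passed the filter on low counts through their MI libraries alone and Pde2a through its naive libraries alone, so the direction of these 3 was partly built in. Without M149 the Cre counts were 23 and 19, with 3 calls lost and 5 gained. The control count of genes that rose rests on few mice, since it was 11 without M44, 9 without M45 and 11 without M40. Between the genotypes none was called by edgeR before or after MI, and the DESeq2 Wald test called Smad3 alone, higher in MI Cre hearts.

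Among the genes of endothelin processing and clearance, Furin, a protease that makes big endothelin, rose from a mean of 40.9 to 71.7 CPM in control (log2 0.81, adjusted p = 0.0392) and from 35.1 to 71.7 CPM in Cre mice (1.03, 0.00642). Mme, or neprilysin, which degrades the peptide, fell by 1.79 on the log2 scale in control (24.1 to 7.01 CPM, adjusted p = 0.00694) and by 2.18 in Cre mice (29.5 to 6.51 CPM, 0.00133). Ece2, a second converting enzyme, had 1 count in each naive control library and 21 to 44 in MI control libraries. The pooled ratio was 14.0 (95% counting interval 3.77 to 117, which leaves out the spread between mice). In Cre mice Ece2 had 1 to 9 counts before and 25 to 53 after MI, and both fits passed (adjusted p = 0.00559 and 0.0147 by edgeR). Edn3, the endothelin-3 gene, had log2 fold changes of -1.49 and -1.89 that did not pass (adjusted p = 0.203 and 0.0665 by edgeR). In this list 2 of 4 tested genes rose and 1 fell in each genotype, with Ece2, which reached the filter in no naive library, among those that rose.

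Of 13 genes that couple the receptors to calcium and to arrestins, 6 rose in control mice and 7 in Cre mice, where 1 fell. Gnaq, the G protein subunit that activates phospholipase C, rose by log2 0.61 and 0.70 (adjusted p = 0.0214 and 0.00504 by edgeR). The arrestins, which end receptor signaling, rose too, Arrb2 by 1.56 and 1.13 (0.000593 and 0.000869) and Arrb1 by 0.93 and 1.15 (0.00178 and 0.000185). Itpr2, an intracellular calcium release channel, rose by 0.52 and 0.66 (0.0262 and 0.0039). The phospholipases went apart, with Plcb3 higher by 0.63 and 0.94 (0.0117 and 0.00056) and Plcb4 lower in Cre mice (-0.81, 0.0113) and at -0.59 in control mice, where it did not pass (0.0724).

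Several genes that supply or control tetrahydrobiopterin fell. Of 6 genes, 3 fell in control mice and 5 in Cre mice. Pts and Spr, which complete synthesis, fell by log2 1.29 and 1.23 in control (adjusted p = 0.00411 and 0.00253 by edgeR), and their values in Cre mice were -1.87 and -1.54 (0.000263 and 0.000329). Gch1, the first and rate-limiting enzyme, was at 20.1 CPM in naive and 14.0 CPM in MI control hearts (-0.52, adjusted p = 0.0837) and fell in Cre hearts from 21.2 to 13.7 CPM (-0.62, 0.027). Its feedback regulator Gchfr was at -1.38 in control (0.112) and fell in Cre mice (-3.07, 0.00303).

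Ddah1, which breaks down the methylarginines that inhibit nitric oxide synthases, had the largest rise of all 62 genes in both genotypes. It was at 5.10 to 16.3 CPM in the 5 naive hearts and 177 to 302 CPM in the 6 MI hearts, with log2 fold changes of 4.44 (SE 0.48, adjusted p = 0.000197 by edgeR) and 4.51 (SE 0.40, adjusted p = 3.97e-05). Its paralog Ddah2 did not pass (0.36 and 0.18, adjusted p = 0.179 and 0.442). Ass1, which recycles citrulline toward arginine, rose by 2.25 and 1.97 (0.00131 and 0.000794). Arg2, an arginase that competes for arginine, ranged from 0.592 to 10.6 CPM in MI control hearts and overlapped with naive control hearts at 0.357 and 0.725 CPM, although its fit passed (3.23, adjusted p = 0.0271). Arg2 reached the filter through its MI libraries alone, so this direction was partly built in. In Cre mice Arg2 did not pass (1.87, 0.0935). Named after their values were seen, Slc7a2, an arginine transporter, and Arg1, the other arginase, turned on M149 in Cre mice: they were at 0.26 and -1.10 with it (adjusted p = 0.8235 and 0.464) and at 3.17 and 2.52 without it (0.000561 and 0.0452 by edgeR). Arg1 was at 184 CPM in M149, at 2.42 and 7.73 CPM in M150 and M34 and at 18.5 to 40.3 CPM in MI Cre hearts. Of the 9 genes of this list 3 rose and none fell in control mice, and 2 rose and Prmt1, which makes methylarginine, fell in Cre mice (-0.80, 0.00155).

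Proteins that bind the synthases fell or did not pass. Of 10 tested, 4 fell in each genotype, among them Cav3 (log2 -2.29 and -2.61, adjusted p = 0.000332 and 6.65e-05 by edgeR), Nostrin (-1.25 and -1.06, 0.000691 and 0.000607) and Cav1 (-0.91 and -0.95, 0.0377 and 0.0183). Cav1 and Cav3 are caveolins that hold the enzymes in caveolae, the former in endothelium and the latter in muscle. All 9 cardiomyocyte markers fell in both genotypes, and their part in the change of Cav3 was not tested.

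Downstream of nitric oxide, 6 of 11 genes rose and 4 fell in each genotype. Gucy1a1 and Gucy1b1, subunits of soluble guanylate cyclase, rose in both genotypes: Gucy1a1 was at 29.7 to 41.8 CPM in naive and 144 to 281 CPM in MI hearts (log2 2.67 and 2.63, adjusted p = 0.000245 and 5.76e-05 by edgeR), and Gucy1b1 was at 28.5 to 48.5 CPM and 76.1 to 153 CPM (1.38 and 1.71, 0.00356 and 0.00037). For both genes the lowest MI heart, M38, lay above the highest naive heart. A further subunit gene, Gucy1a2, was low and did not pass in control mice (means of 0.944 and 1.05 CPM, log2 0.14, adjusted p = 0.834), and rose from 0.431 to 1.22 CPM in Cre mice (a fold of 2.82, adjusted p = 0.0238 by edgeR). Mb, the muscle myoglobin that scavenges nitric oxide, fell from 35053 to 42194 CPM in naive to 927 to 7743 CPM in MI hearts (log2 -2.94 and -3.01, 0.0117 and 0.00682). Pde2a, a cGMP-stimulated phosphodiesterase, had 30 counts over the naive and 2 over the MI control libraries, a pooled ratio of naive over MI of 50.8 (95% counting interval 12.9 to 439). In Cre mice it had 26 and 7 counts, a ratio of 7.85 (3.32 to 21.4), and both fits passed (adjusted p = 0.00467 and 0.033), the Cre fit not without M149 (0.083). Both counting intervals leave out the spread between mice, and no MI library of Pde2a reached the filter.

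**Figure D4:**
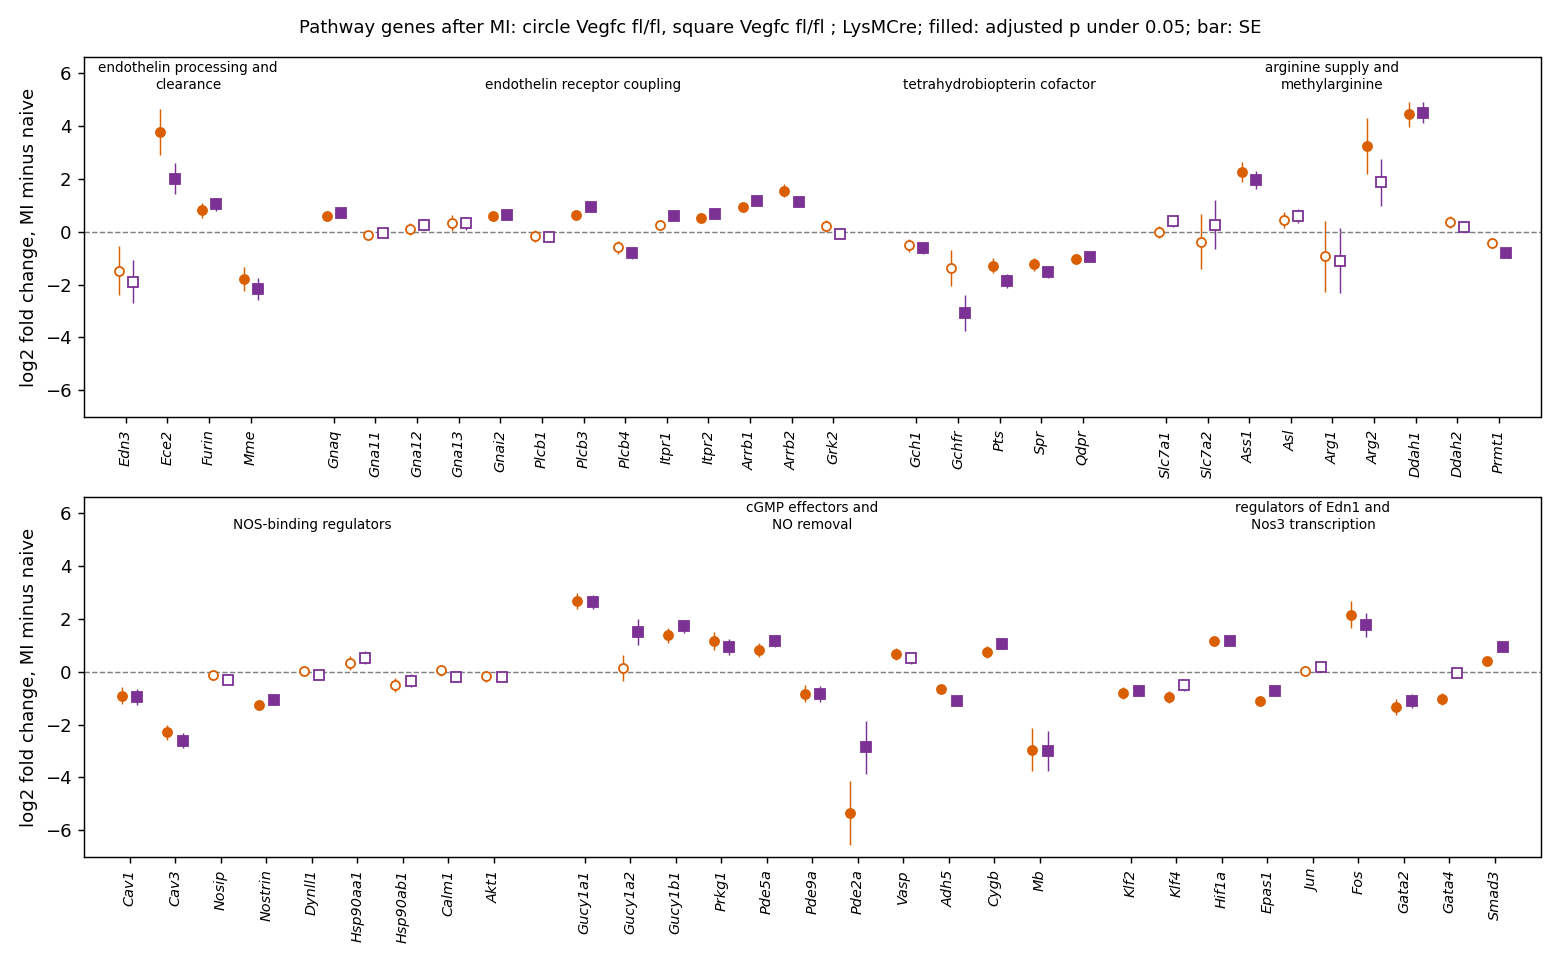
Log2 fold change with MI (vertical axes) of tested genes of the 7 lists, with circles for control and squares for Cre mice, filled where the adjusted p in edgeR was under 0.05, and the SE as a bar. Ddah1 is the highest point at 4.44 and 4.51, and Pde2a in control mice the lowest at -5.36.

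Of 9 transcription regulators linked to Edn1 and Nos3, 3 rose and 5 fell in control mice and 3 rose and 3 fell in Cre mice. Fos, part of AP-1, rose by log2 2.16 and 1.77 (adjusted p = 0.00683 and 0.0068 by edgeR) and Hif1a, the hypoxia factor, by 1.15 and 1.16 (0.000615 and 0.000157), while Jun, the AP-1 partner of Fos, did not pass (0.029 and 0.16, 0.915 and 0.470). Klf2 and Klf4, flow-responsive factors known to raise Nos3 and restrain Edn1, had values of -0.81 and -0.95 in control mice, where both passed (0.0129 and 0.0064), and of -0.72 and -0.51 in Cre mice, where Klf2 passed (0.012) and Klf4 did not (0.0584). Gata2, a GATA factor of endothelium, fell by 1.34 in control mice (0.00419), and its value in Cre mice was -1.11 (0.00534). Over all 7 lists, 0 of 62 interactions with genotype were called by edgeR, 2 of them at an unadjusted p under 0.05.

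The other marker lists place these values in the tissue, and over all 13 lists 8 calls in Cre mice were lost and 3 gained without M149. These numbers leave out Scgb1a1, which then fell below the filter. Beside the counts of every marker list, 26.3% of all genes were called higher and 24.1% lower in control mice. In Cre mice these shares were 30% and 27.7%. Blood endothelial markers were called lower for 3 and higher for 0 of 12 genes in control mice, and lower for 4 and higher for 2 (0 without M149) in Cre mice, and fibroblast markers higher for 6 and 7 of 9. Lymphatic endothelial markers (5 of 6 tested) had 2 higher and 2 lower in control and 3 higher and 2 lower in Cre mice, endocardial markers (4) 2 higher with 1 and 2 lower, mesothelial markers (6) 4 and 3 higher, and neutrophil markers (6 of 7 tested) 1 and 2 higher. Schwann and nerve markers (5 of 7 tested) had 1 lower in control mice and none called in Cre mice, and red cell markers (5) had none called in control and 5 lower in Cre mice. Lung epithelial markers summed to 0.484 to 2.65 CPM, with 3 to 6 of 7 markers at 0 in each library. Of the 2 tested, Ager and Scgb1a1, 1 was called higher and 1 lower in each genotype. Without M149, Ager was not called in Cre mice (adjusted p = 0.0575 by edgeR) and Scgb1a1 was no longer tested. Ager passed the filter through its MI libraries alone and Scgb1a1 through its naive libraries alone, so these directions were partly built in.

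Over the 11 libraries, the genes whose log2 CPM was most like that of each member were found by Pearson's r, given as a description with no test, because these libraries share the split between naive and MI hearts. They were Ube2e2 (r = 0.976), Sost and 9130008F23Rik for Edn1, Slc25a37 (0.986), Osmr and Cped1 for Ednra, Svil (0.925), Prickle1 and Lmtk2 for Ednrb, and Col22a1 (0.940), Bach2 and Acsf2 for Ece1. For the synthases they were Sh2d3c (0.944), Tie1 (0.919) and Ephb4 for Nos3, Aqp8 (0.918), Apod and Mybpc2 for Nos2 and Zfp113 (0.963), Nrip3 and Mst1r for Nos1. With each group's mean removed, the genes most like each member were Cd46 (0.962), Doc2b and Zfp862-ps for Edn1, Gprasp1 (0.970), Senp6 and Krit1 for Ednra, Svil (0.976), Prickle1 and Gab1 for Ednrb, and Pim3 (0.968), Oplah and Lamtor5 for Ece1. They were Jag2 (0.969), Kirrel3 and Rasip1 for Nos3, Ears2 (0.959), Adra1a and Mad2l2 for Nos2, and Atad3a (0.971), 5430405H02Rik and Hand2 for Nos1. Svil and Prickle1 were named for Ednrb by both measures, and the genes named for the other members differed between the measures. Ednrb was at 51.8 CPM in M35 and at 13.1 to 29.6 CPM in the other libraries. How far its r values rest on M35 was not tested. Under both measures the genes were picked as the highest r among all tested genes, so a high r was partly built in.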

How the data were processed

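Total RNA of left ventricle was made into stranded mRNA libraries by the authors, whose deposited files hold whole-number counts of reads on each of 25006 Ensembl genes, not normalized. The submitters' processing notes name cutadapt 1.13, STAR, HTSeq 0.6.1p1, DESeq2 1.14.1 and the mm10 build. The role and settings of each, strand included, are not given in the sources used here. Of the gene IDs, 24991 were found in GENCODE M21 (GRCm38), which gave names, coordinates and exon lengths.

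Groups were taken from the labels. Genes were filtered with edgeR 4.0.16 filterByExpr by group, which left 14779, and scaled by TMM. Group differences were tested in 1 quasi-likelihood fit of the 11 libraries with 4 group means in R 4.3.3, Benjamini-Hochberg adjusted over all tested genes, at a threshold of 0.05. Intervals are at 95% from the same fit, apart from the counting intervals of pooled reads, which leave out the spread between mice. The scripts' tests were checked on simulated data in which far fewer genes changed than were called with MI here. That check therefore does not cover scaling or false calls under so broad a change. Alternatives used DESeq2 1.42.0, limma 3.58.1 voom with quality weights, other scalings, filters and thresholds, the compared groups alone, and each library left out. Correlations were taken on log2 CPM (prior count 2). The p-values measure the spread between mice, and counts of reads without molecular identifiers are not independent molecules. Promoter windows came from RefSeq (GRCm38.p6).

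The 7 members, the 7 pathway lists (65 genes) and the 13 marker lists (97 genes) were chosen with earlier results of these data known. All members were named, and within a list the genes called with MI that had the largest or smallest change, up to 4 a list, plus Gucy1a1, Gucy1b1, Gch1, Ddah1, Ddah2, Klf2, Klf4, Edn3 and Mme. Furin, Gnaq, Plcb3, Spr, Arg2, Nostrin, Hif1a, Jun, Gucy1a2, Slc7a2 and Arg1 were added after their values were seen. Some genes of the lists are counted but not reported singly here.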

Additional observations from a re-analysis of the deposited data

How the results depend on the processing

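Of the members, 6 were tested under 19 alternatives in each two-group comparison, and Nos1 under 17 or 18, since it fell below the filter in the rest. Edn1 in both genotypes and Ednra in Cre mice were called in all of them. No paired analysis was possible because each mouse has its own number. Members called higher with MI in control mice went from 2 to 1 at a threshold of 0.01 and ran from 1 (without M44 or M45) to 2 when each library was left out. Members called lower went from 1 to 2 with voom quality weights, to 0 at 0.01, and from 0 to 2 over the left-out libraries. Pathway genes called higher went from 21 to 9 at 0.01 and from 9 to 21 over the left-out libraries. In Cre mice, members called higher went from 4 to 2 at 0.01 and from 2 (without M149 or M35) to 4. Between the MI genotypes, the DESeq2 Wald test called 1 pathway gene higher. Signs turned for values that were not called. Ece1 in control mice was -0.0061 with DESeq2 size factors and with the DESeq2 Wald test, and -0.071 to 0.13 over the left-out libraries. In Cre mice Ednrb was -0.084 with voom weights and -0.21 to 0.56 over the left-out libraries, Nos2 -0.33 to 0.19 and Nos3 -0.21 to 0.27. Between the MI genotypes Edn1 was -0.081 with voom weights and -0.090 to 0.14 over the left-out libraries, and Nos1 -0.22 to 0.77. Between the naive genotypes Ednra was -0.0059 to 0.23 and Nos1 -2.19 to 0.12. Per kilobase of the longest transcript, Ednra ranked 1 and Ece1 2 in MI Cre hearts, Ednra 2, Nos3 3 and Ednrb 4 in naive control hearts, and Ednra 2 and Nos3 3 in naive Cre hearts. The cause was not tested for any of these, apart from fewer libraries when one is left out. The macrophage sum without Lyz2, chosen after seeing the data, is given with Nos2. Without a filter on low counts every member kept its calls. Depth limits Nos1, with at most 4 counts in a naive library, and 2 naive control mice limit every comparison that uses them.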
